A study of Mus musculus with 8 samples.

Results

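NF-κB subunits, the IκB proteins that hold them back, the kinases that release them and the adaptors and brakes around those kinases were followed as 34 genes in mouse pancreatic islets. The members were chosen by name from the pathway, and each was read by the brightest of the array probes whose accession maps to its symbol. All 34 were found among the 21154 genes matched to a probe, on 46 probes, and 33 of them were compared between genotypes. The effector target *Icam1*, an adhesion molecule, was well above background on 1 array and was not compared. From textbook knowledge, 15 members were classed as feedback targets, that is genes that NF-κB itself switches on, and 19 as constant components.

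The islets came from male C57BL/6 mice on a standard diet, 4 labelled WT and 3 labelled CB1_KO, on 8 single-colour Agilent arrays. The second CB1_KO mouse was hybridised to a pair of repeat arrays, which were averaged. The title and design of the series name a beta-cell-specific knockout. In the study those β-CB1R−/− mice carried *Cnr1* flox/flox and MIP-Cre/ERT, a tamoxifen-inducible Cre under the mouse insulin promoter, and their littermate controls carried *Cnr1* flox/flox without Cre, with tamoxifen given to both. The sample labels, however, give the genotype as CB1 only, and their growth protocol describes the global knockout, so which of these mice were arrayed is not settled. The age of the array mice and any pooling of animals are not given in the sources used here, so each sample is taken as 1 mouse. The comparison of genotypes asks which islet transcripts differ when the cannabinoid receptor CB1R is lost.

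NF-κB dimers of RELA, RELB, REL, NFKB1 and NFKB2 wait in the cytoplasm bound to IκB proteins. Signals from cytokine and pattern recognition receptors pass through TRAF adaptors to the TAK1 complex and the IκB kinase complex, which marks IκB for destruction, and the freed dimers bind κB sites. Among the first genes they switch on are their own inhibitors, so the transcripts of the feedback targets follow recent activity, while activation itself is a change in proteins that an array does not see. In islets the pathway is known for its part in the response of beta cells to interleukin-1.

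The promoters of 3 members show the sequence difference between the classes. They are shown because *Nfkbia* and *Tnfaip3* are the classic feedback inhibitors and *Rela* is the constant subunit. Each window runs from 250 bases before to 50 bases after an annotated start site in RefSeq GRCm38.p6, some genes have several windows, and capitals mark matches to the κB consensus on either strand. The windows lie at chr12:55492598-55492897 (minus strand) for *Nfkbia*, at chr10:19015361-19015660 (minus strand) for *Tnfaip3* and at chr19:5637291-5637590 (plus strand) for *Rela*.
Nfkbia: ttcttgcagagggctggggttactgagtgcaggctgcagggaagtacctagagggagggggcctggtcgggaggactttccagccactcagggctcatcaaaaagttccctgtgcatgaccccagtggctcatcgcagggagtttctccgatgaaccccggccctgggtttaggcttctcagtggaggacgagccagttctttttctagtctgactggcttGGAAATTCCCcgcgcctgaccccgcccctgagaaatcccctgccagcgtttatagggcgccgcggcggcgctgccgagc
Tnfaip3: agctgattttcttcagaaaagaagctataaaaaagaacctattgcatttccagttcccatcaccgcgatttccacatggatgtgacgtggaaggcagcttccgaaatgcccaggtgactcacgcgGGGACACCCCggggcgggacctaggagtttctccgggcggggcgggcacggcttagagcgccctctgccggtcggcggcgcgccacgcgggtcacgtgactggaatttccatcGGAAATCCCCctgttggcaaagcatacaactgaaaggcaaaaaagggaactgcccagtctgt
Rela: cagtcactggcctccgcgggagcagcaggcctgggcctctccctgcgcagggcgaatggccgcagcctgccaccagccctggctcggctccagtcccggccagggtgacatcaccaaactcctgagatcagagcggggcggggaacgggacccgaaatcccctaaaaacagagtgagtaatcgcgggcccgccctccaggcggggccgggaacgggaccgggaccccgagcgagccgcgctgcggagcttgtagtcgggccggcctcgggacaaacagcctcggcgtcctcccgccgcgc

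Counted from the start site as 0, the match in *Nfkbia* begins at position −29 and those in *Tnfaip3* at −125 and −12, while the *Rela* window holds none. A second window of *Tnfaip3*, at another start site, held none either. Counting a gene when any of its windows held a match, one was found for 8 of the 11 feedback targets with a window (*Bcl3*, *Nfkbid*, *Tnfaip3*, *Rel*, *Tnip1*, *Nfkbia*, *Nfkbie* and *Nfkb2*) and for 4 of 16 constant components (*Bcl10*, *Map3k7*, *Cyld* and *Traf3*). These shares were 72.7% and 25%, beside 9.55% of 27025 genes in the whole table. The AP-1 motif TGANTCA, which FOS and JUN proteins bind and which reads the same on both strands, was in windows of 4 feedback targets (36.4%) and 1 constant component (6.25%), beside 8.97% of all genes. The AP-1 matches belonged to *Ikbke*, *Tnfaip3*, *Nfkbie*, *Nfkb2* and *Ikbkg*. A match describes the letters of the window and shows no binding. *Tab1*, *Nos2*, *Ikbkb*, *Malt1*, *Nfkbiz*, *Nfkb1* and *Relb* had no window in the table.

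Levels are log2 intensities relative to the 75th percentile of the array, and each is comparable between mice for the same probe only. From 33308 to 39989 probes per array were well above background, and 32 of the 34 members were so on all 8 arrays. *Cnr1*, the targeted gene, lay between −1.11 and −0.02 in the WT mice and between −3.13 and −2.28 in the CB1_KO mice. Its log2 fold change was −1.97 ± 0.33 (SE; limma, adjusted p = 0.193), and whether its probe lies in the deleted part was not checked. Markers of beta cells had a summed level of 11.9 to 12.3 in WT and 11.6 to 12.2 in CB1_KO islets, with lower means in CB1_KO islets for 8 of 9 genes. Macrophage markers had 5.77 to 6.25 and 6.21 to 6.69, and 11 of those 12 genes had higher means in CB1_KO islets, none past the threshold. The sums were 12.8 to 13.6 and 12.7 to 13.7 for acinar markers, and 2.26 to 5.93 and 4.07 to 4.82 for stellate cell and fibroblast markers, of which 7 of 7 genes had higher means in CB1_KO islets. The genotypes did not overlap for alpha cell markers, with 9.91 to 10.3 in WT and 9.59 to 9.86 in CB1_KO islets and lower means in CB1_KO islets for 4 of 5 genes. Delta cell markers had 8.81 to 9.38 and 8.31 to 9.06, with lower means for 3 of 3. None of these genes had a limma adjusted p under 0.05. In whole islets, fewer cells of a type and less RNA per cell cannot be told apart. The immediate-early gene *Fos*, which is switched on within minutes by many stimuli, had levels of 5.34 to 6.31 in WT mice 3 and 4 and CB1_KO mouse 2 and of −1.59 to 0.76 in the other mice. Those 3 mice, picked by *Fos*, are called the high-*Fos* mice here. Of the 12 immediate-early genes listed, 9 were well above background on all 8 arrays, *Fos* included, and each of these had its highest values in those mice.

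No member passed the threshold between genotypes. Across all genes 0.171% of the brightest probes (29 of 16950) had a limma adjusted p under 0.05, and 3.92% an unadjusted p under 0.05. Among the 33 members compared both counts were 0. Members were higher in CB1_KO islets in 18 cases and lower in 15, with a median log2 fold change of 0.028 beside −0.039 over all genes. The sign of that median turned with the setting: it was −0.0018 with normexp background correction, −0.019 without CB1_KO mouse 2, −0.0099 without CB1_KO mouse 3 and −0.0088 without WT mouse 1. The feedback targets had a median of 0.11 (9 higher, 5 lower) and the constant components of −0.0026 (9 higher, 10 lower). With a mouse left out the feedback median ran from −0.034 (without CB1_KO mouse 2) to 0.184 (without CB1_KO mouse 3), through 0.013 without WT mouse 1 and 0.174 without CB1_KO mouse 1. It was 0.027 with normexp, and the constant median was −0.125 without CB1_KO mouse 3. The 95% intervals of all 33 held 0, and 30 of them lay within −1 to 1, that is within a doubling or halving. The other 3 were *Nfkbiz*, *Tnfaip3* and *Tnip1*, for which these mice leave larger differences possible.

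**Figure D1:**
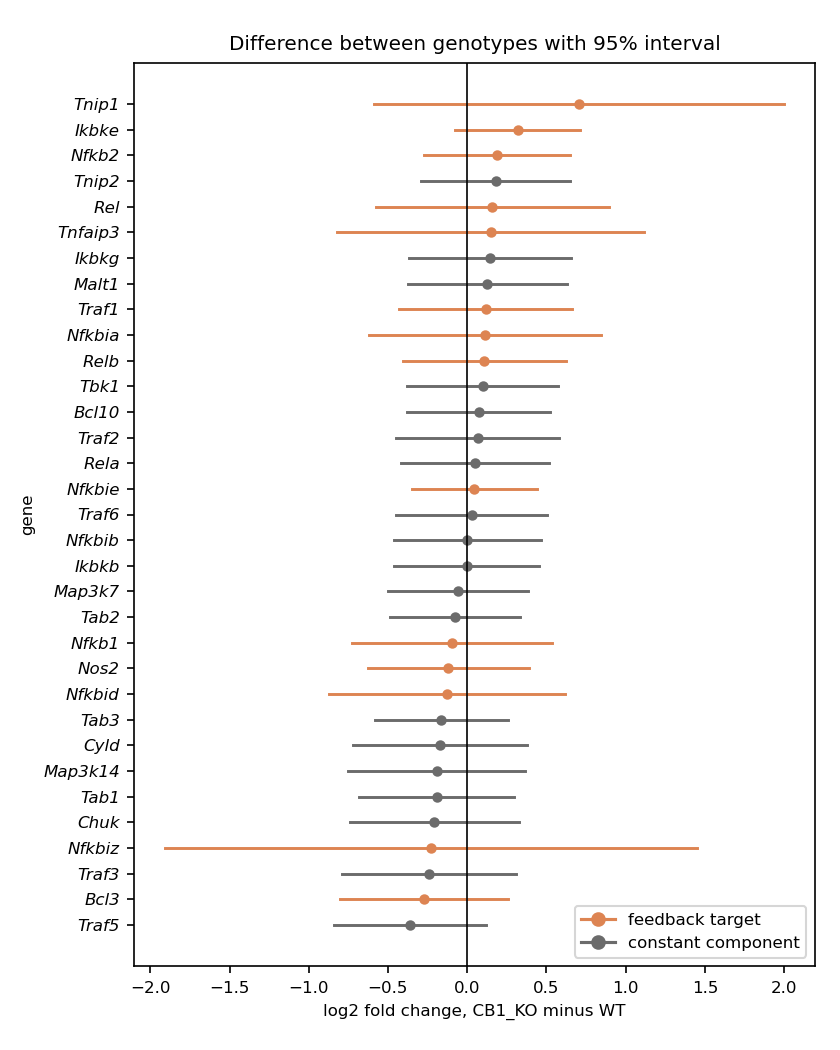
Log2 fold change (CB1_KO minus WT, x axis) of the 33 members compared (y axis), with bars for the 95% limma interval, 4 WT against 3 CB1_KO mice. Points run from −0.36 (Traf5) to 0.71 (Tnip1), every bar crosses 0, and the widest bars belong to the feedback targets Nfkbiz, Tnip1 and Tnfaip3.

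None of the subunits showed a difference between genotypes larger than the spread of the mice. *Rela*, whose product carries the main activation domain, stood at 3.96, 4.01, 3.97 and 4.10 in WT mice 1 to 4 and at 3.77, 4.38 and 4.03 in CB1_KO mice 1 to 3. The CB1_KO values bracketed the WT values on both sides, and the log2 fold change was 0.05 ± 0.20 (SE; 95% interval −0.42 to 0.52; limma, adjusted p = 0.999). *Nfkb1*, which encodes the p105 precursor of p50, read 0.09, −0.10, 0.03 and −0.72 in WT and −0.41, −0.52 and 0.12 in CB1_KO mice. The lowest and the highest value were 1 WT and 1 CB1_KO mouse, and the log2 fold change was −0.10 ± 0.27 (SE; 95% interval −0.72 to 0.53; limma, adjusted p = 0.999).

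*Nfkb2*, the p100 precursor of the non-canonical subunit p52, read −0.70, −0.98, −1.07 and −0.96 in WT and −0.72, −0.51 and −0.98 in CB1_KO mice. *Relb*, the partner of p52, read −0.22, 0.23, −0.19 and 0.05 against −0.21, 0.06 and 0.38. For both non-canonical subunits the genotypes overlapped. *Rel*, the lymphoid subunit c-REL, was well above background on 5 of 8 arrays and read −3.64, −3.05, −3.34 and −4.34 in WT and −3.17, −3.54 and −3.60 in CB1_KO mice. Its repeat arrays differed by 1.14, the largest such difference among the members, so its order between mice is not resolved. Over the subunits, log2 fold changes ran from −0.10 to 0.19.

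The IκB family held both the members that followed *Fos* by mouse and the member with the narrowest range. *Nfkbia* encodes IκBα, the inhibitor resynthesised first after activation. It read 3.35, 3.37, 4.01 and 3.96 in WT mice and 3.31, 4.39 and 3.66 in CB1_KO mice. WT mice 3 and 4 and CB1_KO mouse 2 were the highest, 0.31 or more above the other 4, while the genotypes overlapped (log2 fold change 0.11 ± 0.32, SE; 95% interval −0.62 to 0.84; limma, adjusted p = 0.999). Without CB1_KO mouse 2 the log2 fold change was −0.19. *Nfkbiz* encodes IκBζ, an inducible nuclear co-factor. It read −0.60, −0.67, 1.38 and 1.15 in WT mice and −0.20, 1.47 and −1.01 in CB1_KO mice. The same 3 mice were highest, with a gap of 1.35 to the next, and the mice again did not divide by genotype (log2 fold change −0.23 ± 0.73, SE; 95% interval −1.91 to 1.45; limma, adjusted p = 0.999). The sign of that difference turned under several settings given at the end.

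*Nfkbid*, another nuclear IκB protein, read −1.42, −0.75, −0.50 and −1.05 in WT and −1.65, −0.93 and −0.59 in CB1_KO mice. Its order differed from that of *Nfkbia* and *Nfkbiz*: CB1_KO mouse 3, a low-*Fos* mouse, was second highest. The remaining inhibitors, *Nfkbib* (IκBβ), *Nfkbie* (IκBε) and the nuclear co-factor *Bcl3*, had ranges over the 7 mice of 0.55, 0.23 and 0.80. *Nfkbie* had the narrowest range of all members compared.

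**Figure D2:**
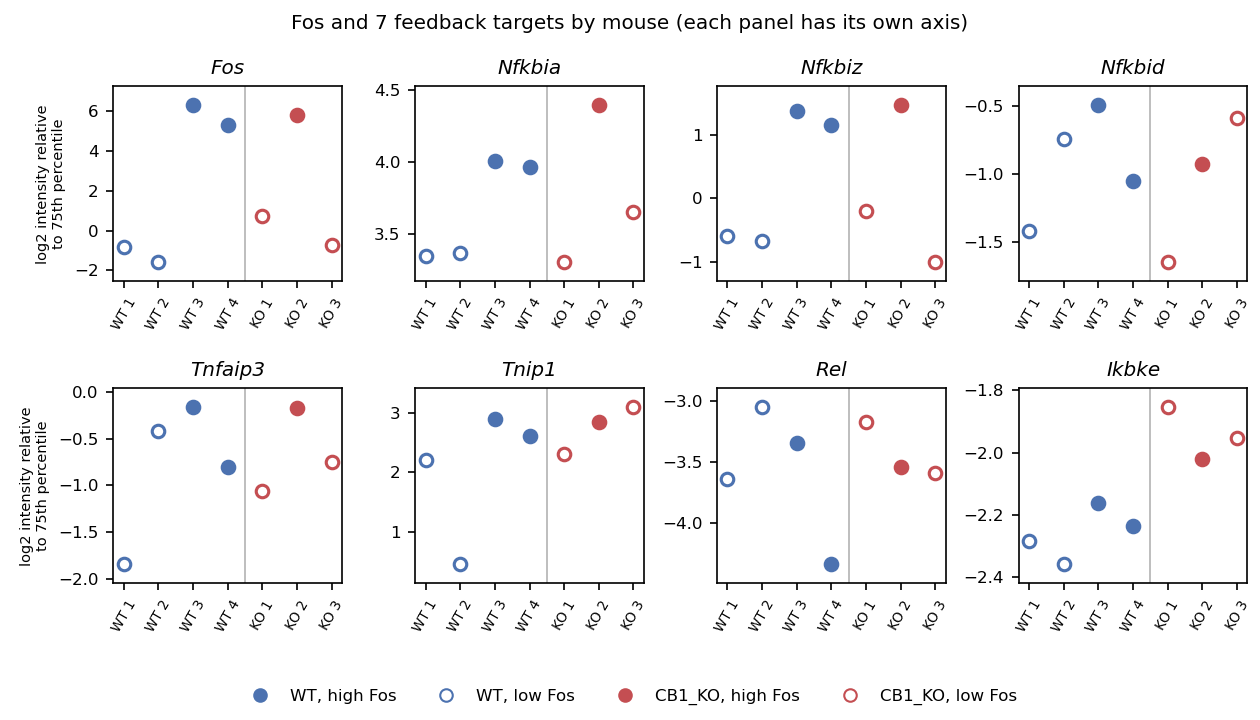
Log2 intensity relative to the 75th percentile of the array (y axis, own scale in each panel) of Fos and 7 feedback targets in each mouse (x axis). Filled points are the 3 high-Fos mice, and these are the 3 highest points for Nfkbia (gap 0.31) and Nfkbiz (gap 1.35) but for none of the other 5 feedback targets. Ikbke alone has its 3 CB1_KO points above its 4 WT points.

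The members were also read against *Fos* by mouse. The 3 high-*Fos* mice held the 3 highest values for 2 of 33 members (6.06%), beside 1.33% of all genes compared. Both were feedback targets, *Nfkbia* and *Nfkbiz*, which makes 2 of 14, and none of the 19 constant components did so. The difference between the classes was not tested. *Nfkbia* and *Nfkbiz* kept this place under every alternative setting run. Many of these settings could not change it, since added model terms leave the values as they are and leaving out mice cannot break a separation. Other background corrections, normalisations and the use of a single repeat array could have changed it. Without WT mouse 3 the constant component *Rela* joined them, with *Nos2* and *Traf1*, which made 5 members (15.2%, beside 3.5% of all genes in that setting). One constant component went the other way: *Ikbkg*, the regulatory subunit NEMO of the IκB kinase complex, was lowest in the 3 high-*Fos* mice, by a gap of 0.01, where 2.5% of all genes were lowest in them. The repeat arrays of CB1_KO mouse 2 differed by 0.12 for *Nfkbia*, 0.04 for *Nfkbiz* and 0.38 for *Ikbkg*, so the last falls within the difference between arrays of 1 RNA. The high-*Fos* mice were picked by *Fos* in these data, so no test was run. Macrophage markers summed to 6.05 to 6.69 in the high-*Fos* mice and 5.77 to 6.42 in the others, and their part in these values was not tested.

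The spread between mice was also described by class. The SD between mice within genotype had a median of 0.32 for the feedback targets, 0.21 for the constant components and 0.33 for all genes, so the constant components lay under the typical gene and the feedback targets close to it. Both classes mix bright and dim probes, and the part of probe brightness in this difference was not tested. Ranges over the 7 mice above 1 were found for 6 feedback targets (*Rel*, *Nfkbia*, *Nfkbid*, *Nfkbiz*, *Tnfaip3* and *Tnip1*) and for 0 constant components. The first is 42.9% of the 14 feedback targets compared, close to the 46.7% of all genes. The range of *Rel* (1.29) was near the difference between its repeat arrays (1.14), and that of *Tnip1* came from WT mouse 2 on 1 of its probes. Fitting high or low *Fos* beside genotype took the SD of *Nfkbiz* from 1.17 to 0.31 and that of *Nfkbia* from 0.45 to 0.15. Since both genes are highest in the high-*Fos* mice, much of this drop restates that place and is no separate result. The same fit left *Tnfaip3* at 0.56 from 0.64, *Tnip1* at 0.80 from 0.88, *Rel* at 0.45 from 0.45 and *Nfkbid* at 0.49 from 0.46. The excess of the feedback over the constant median SD was 0.11 and ran from 0.02 to 0.16 over the settings, lowest with the immediate-early level as a covariate. Repeat arrays of 1 mouse differed by a median of 0.08, and by less than the SD within genotype for 27 of the 33 members.

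**Figure D3:**
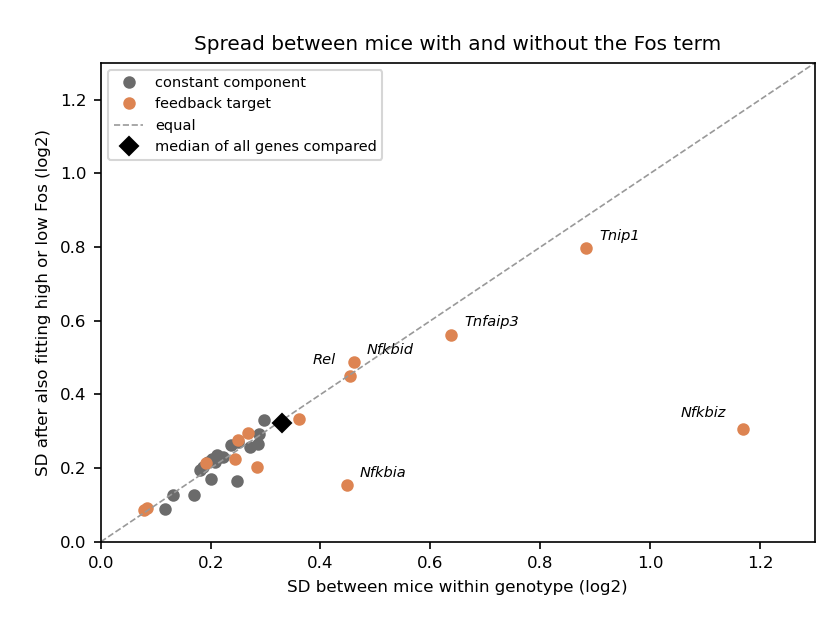
SD between mice within genotype (x axis, log2) against the SD left once high or low Fos is also fitted (y axis, log2) for the 14 feedback targets and 19 constant components compared. Nfkbiz and Nfkbia, the members highest in the high-Fos mice, lie far under the line of equality, which largely restates that place. Tnip1, Tnfaip3, Rel and Nfkbid lie near the line.

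Among the kinases, *Ikbke* was the single member whose genotypes did not overlap. It encodes IKKε, an inducible kinase related to TBK1. It read −2.29, −2.36, −2.16 and −2.24 in WT mice and −1.85, −2.02 and −1.95 in CB1_KO mice. All 3 CB1_KO mice lay above all 4 WT mice, the log2 fold change was 0.32 ± 0.17 (SE; 95% interval −0.075 to 0.71; limma, adjusted p = 0.999), and the exact permutation test gave p = 0.0286, the smallest its 35 splits allow. That p largely restates the lack of overlap by which the gene was picked. Genotypes that do not overlap were found for 3.03% of the members and for 4.84% of all genes (2.63% with CB1_KO higher), so the count is not above the background. With quantile normalisation and with the deposited Z scores no member was free of overlap. With normexp background correction *Ikbke* overlapped too, and its log2 fold change was 0.12. The exact permutation p of every other member was higher, the next being 0.114 for *Traf5*. *C1qb*, a macrophage gene, was also higher in every CB1_KO mouse. It was the only 1 of the 12 macrophage genes listed whose genotypes did not overlap (8.33%, beside 4.84% of all genes). The part of macrophages in the *Ikbke* value was not tested.

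The other kinases and their adaptors overlapped between genotypes without exception. IκB kinase subunits α and β (*Chuk*, *Ikbkb*) and NEMO, the IKK-related kinase *Tbk1*, the NF-κB-inducing kinase *Map3k14*, TAK1 (*Map3k7*) and its binding partners *Tab1*, *Tab2* and *Tab3* make up this group. With *Ikbke*, log2 fold changes of these 10 members ran from −0.21 to 0.32, 3 of them higher and 7 lower. Ranges over the 7 mice went from 0.29 for *Tab2* to 0.87 for *Map3k14*, with 0.86 for *Chuk*.

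**Figure D4:**
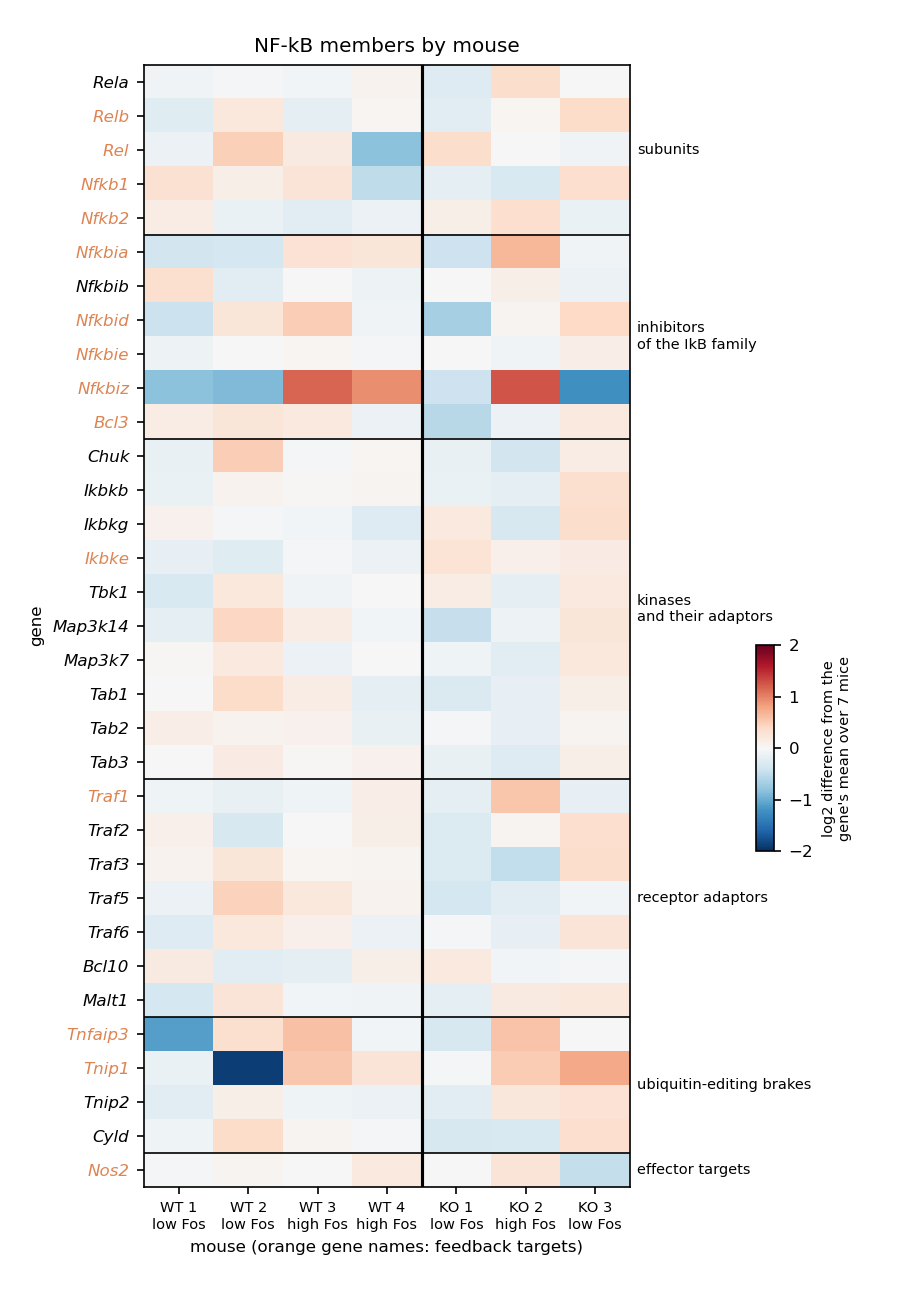
Difference of each member from its own mean over the 7 mice (colour, log2) by gene (rows, grouped by role) and mouse (columns, WT left and CB1_KO right of the black line). The widest ranges are those of the feedback targets (orange names) Tnip1, 2.64 with WT mouse 2 low, and Nfkbiz, 2.48, while Map3k14 has the widest of the constant components, 0.87, and Nfkbie, a feedback target, the narrowest, 0.23.

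The receptor adaptors (*Traf1*, *Traf2*, *Traf3*, *Traf5*, *Traf6* and the CARD complex partners *Bcl10* and *Malt1*) had 5 members higher and 2 lower. *Traf5*, an adaptor of TNF receptor family members, had the lowest log2 fold change of all, −0.36 ± 0.21 (SE; 95% interval −0.84 to 0.12; limma, adjusted p = 0.999). It read −0.18, 0.40, 0.14 and 0.01 in WT and −0.41, −0.28 and −0.11 in CB1_KO mice, and WT mouse 1 fell inside the CB1_KO range. *Traf1*, the inducible member of the family, was highest in CB1_KO mouse 2 at −1.85, where the other 6 mice lay between −2.60 and −2.27. A second, dimmer probe of *Traf2* read −4.20 and −5.33 on the repeat arrays of CB1_KO mouse 2 and −1.78 to −0.23 in the other mice, a drop that the brightest probe (2.75 in that mouse, 2.37 to 3.03 in the others) did not show.

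The ubiquitin-editing brakes end the signal by removing or blocking ubiquitin chains. *Tnfaip3*, which encodes A20, read −1.84, −0.42, −0.16 and −0.80 in WT and −1.06, −0.18 and −0.75 in CB1_KO mice. WT mouse 3 and CB1_KO mouse 2 were its highest, but the third high-*Fos* mouse lay below WT mouse 2 and CB1_KO mouse 3. *Tnip1*, the A20-binding protein ABIN1, read 2.21, 0.45, 2.89 and 2.61 in WT and 2.30, 2.84 and 3.09 in CB1_KO mice. Its log2 fold change of 0.71 ± 0.56 (SE; 95% interval −0.59 to 2.00; limma, adjusted p = 0.999) was the highest of the members and rested on WT mouse 2: without that mouse it was 0.18. A second probe of *Tnip1* did not show the drop, with 2.35 in WT mouse 2 and 1.86 to 2.45 in the others. *Cyld*, a deubiquitinase, had the converse, a second probe low at −2.34 in WT mouse 2 alone while its brightest probe read 2.14 there, its highest value. *Tnip2*, the related ABIN2, ranged over 0.50. Of the effector targets, *Nos2*, the inducible nitric oxide synthase, read −1.66 to −1.44 in WT and −2.10 to −1.38 in CB1_KO mice.

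Beyond the members, 63 other genes of the pathway were listed, and 51 were compared. None had an adjusted p under 0.05, and 5 had an unadjusted limma p under 0.05 (3 higher, 2 lower), 4 of them among the 11 receptors compared, where 3.92% of all genes did. Genotypes did not overlap for 3 of the 51 (5.88%), beside 4.84% of all genes. Both counts, and the 4 receptors, include *Il1rap*, which passed the filter on dim probes only through the genotype where it is high. Without it the counts are 4 (8%) and 2 (4%) of 50 genes. The receptors at an unadjusted p under 0.05 are then 3 of 10. *Il1r1*, the signalling receptor for interleukin-1, read 5.10, 4.74, 4.46 and 4.56 in WT and 3.62, 3.28 and 4.03 in CB1_KO mice. Every CB1_KO mouse lay below every WT mouse, by a log2 fold change of −1.07 ± 0.26 (SE; limma, adjusted p = 0.77). *Tnfrsf12a*, the TWEAK receptor, also lay lower in all CB1_KO mice, at −0.47 to 0.21 against 0.33 to 0.72. *Tnfrsf1a*, the main TNF receptor, read 2.02 to 2.36 in WT and 2.33 to 2.96 in CB1_KO mice. *Il1rap*, the accessory chain of the interleukin-1 receptor, was not well above background on any WT array. Its CB1_KO mean lay 1.66-fold above the lowest intensity that counted as well above background. That fold is no lower limit for single mice: WT mouse 1 read −3.475 and CB1_KO mouse 1 read −3.167. It entered the comparison through the CB1_KO mice alone, so its difference is a description. The summed alpha cell markers given above also divided by genotype, and their part in these receptor values was not tested. Nor was that of the beta cell, macrophage, stellate and delta cell markers. The chemokine *Cxcl10* was well above background in WT mouse 4 and every CB1_KO mouse, with levels of −4.88 to −1.88 and −2.88 to −0.42. It too needed the CB1_KO mice, where it is higher, to pass the filter on dim probes, so its difference is a description. The 4 of 50 genes above still include *Cxcl10*.

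The 18 receptor-proximal genes, such as the TNF receptor adaptor *Tradd* and the interleukin-1 receptor adaptor *Myd88*, had log2 fold changes from −0.52 to 0.56 and none with an unadjusted p under 0.05. Of 11 ligands 6 were compared, and *Tnf* was well above background on 1 array. In these lists the 3 high-*Fos* mice held the highest values of *Ier3*, an early response gene (gap 1.20), the chemokine *Cxcl1* (gap 0.47) and *Il1b*, the cytokine interleukin-1β (gap 0.05), which is 3 of 51 genes (5.88%) beside 1.33% of all genes. The repeat arrays of CB1_KO mouse 2 differed by 0.23 for *Il1b*, more than its gap, by 0.45 for *Cxcl1*, about its gap, and by 0.19 for *Ier3*.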

How the data were processed

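Islet RNA of 4 WT and 3 CB1_KO mice was measured on 8 arrays. The authors deposited spot intensity values as Agilent Feature Extraction gave them, corrected for background within each array but left unscaled. A score per probe was deposited as well, and it matched the Z score of the log10 intensity to within 0.00503. For the array analysis the paper refers to an earlier article, not used here, and it names Student's test or ANOVA as its general statistics. WT arrays lay on one side of the single slide and CB1_KO arrays on the other, so position and genotype cannot be told apart.

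Intensities were put on the log2 scale relative to each array's 75th percentile over 59305 non-control spots. Flagged outlier spots were dropped, spots of a probe were averaged, and no spot was saturated. Accessions of 28026 of 55681 probes matched a RefSeq GRCm38.p6 symbol. Probes that exceeded background clearly in at least 3 mice, 39160 in all, were compared with limma 3.58.1 in R 4.3.3 (lmFit and eBayes, two-sided, Benjamini-Hochberg over these probes, threshold 0.05), of which 43 passed (0.11%). The number of mice, and of arrays, limits the precision. For each gene listed, genotype means were also compared by exact permutation over the 35 splits, two-sided. The script was tested on simulated data. Where a genotype had no array well above background, the fold sets the other genotype's mean against the lowest such intensity of each array. Summed marker levels are log2 of the summed linear values.

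Every member is named, with values by mouse for subunits, for members whose genotypes do not overlap, and for feedback targets ranging over more than 1. Outside the members, pathway genes are named at an unadjusted p under 0.05 or without overlap. *Tradd*, *Myd88* and *Tnf* are named as examples of their lists. *Icam1*, *Traf1*, *Traf2*, *Cyld*, *Tnip1* second probes, *Nos2*, *C1qb* and the genes highest in the high-*Fos* mice were chosen after their values were seen. Members and lists were chosen with earlier results of these data known. Columns of per-sample values not used numbered 0. Alternatives were other background corrections, normalisations, dim-probe filters, repeat arrays, blocks, covariates, variance models, probes per gene and each mouse left out.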

Additional observations from a re-analysis of the deposited data

Results flagged for a closer look

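*Traf3*, an adaptor that holds the non-canonical pathway in check, stood apart in 1 WT mouse: WT mouse 2 read 3.78 where the other 3 read 3.58 to 3.61. The repeat arrays of CB1_KO mouse 2 differed by more for this gene, 0.24, and CB1_KO mouse 3 read higher, 3.89. It was the single case among 36 sets of WT values examined for a lone high or low mouse, where chance gives about 1.8.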

How the results depend on the processing

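The count of members past the threshold was 0 under all alternatives run, with a lowest limma adjusted p of 0.507 (without CB1_KO mouse 3). At an unadjusted p under 0.05 the methods' *t* test called 1 member, *Ikbke*, and the fit without CB1_KO mouse 3 called 1, *Traf3*. Each is 3.03% of the members, beside 4.37% and 10.1% of all genes in the same settings. The number of members whose genotypes do not overlap was 0 with quantile normalisation and 0 with the deposited Z scores. It was 1 with normexp, but *Malt1* in place of *Ikbke*. It ran from 1 to 6 with a mouse left out, with 6 without CB1_KO mouse 3 (*Cyld*, *Ikbkb*, *Ikbke*, *Tab3*, *Traf3* and *Traf5*) and 3 without CB1_KO mouse 2. These are 18.2% and 9.09% of the members, beside 29.9% and 7.37% of all genes in the same settings. Fewer mice overlap less by construction.

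The members highest in the high-*Fos* mice numbered 2 to 5 with a mouse left out, 5 without WT mouse 3 (*Nos2*, *Rela* and *Traf1* joined). Leaving out a mouse can raise this count but cannot lower it. The log2 fold change of *Nfkbiz* turned to 0.10 with high or low *Fos* as a block and ran from −0.92 to 0.32 with a mouse left out. Left-out ranges also crossed 0 for *Rela* (−0.11 to 0.20), *Nfkb1* (−0.29 to 0.028) and *Nfkbia* (−0.19 to 0.35), which each changed sign without CB1_KO mouse 2. The cause was not tested. *Ikbke*, *Tnip1* and *Traf5* kept their sign in all alternatives, though *Ikbke* read 0.12 with normexp beside 0.32, and *Tnip1* read 1.1 with normexp and 0.18 without WT mouse 2 beside 0.71.

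The replicate numbers share no stated litter or day, and deviations of same-numbered mice correlated at 0.42, −0.27 and −0.06, so they do not pair the mice. With the replicate number as a block, 0 members and 0 of all probes passed the threshold, 2 members did not overlap (*Ikbke* and *Tab2*, 6.06% beside 9.4% of all genes), and *Nfkbiz* read 0.05. That fit leaves out WT mouse 4, which has no partner, and leaving out WT mouse 4 without a block gave the same 2 members and the same 0.05. Slide and scan as a block were not run, since 1 slide held all arrays.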
